A study of Mus musculus with 6 samples.

Results

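The mouse genes described here encode 10 enzymes that modify nucleosides of transfer RNA (tRNA), chosen by name from 4 enzyme families. Osgep, Osgepl1 and Yrdc make N6-threonylcarbamoyladenosine (t6A). Trit1, Cdk5rap1 and Cdkal1 make N6-isopentenyladenosine (i6A) or add a methylthio group to i6A or t6A. Qtrt1 and Qtrt2 insert queuosine, and Dus1l and Dus2 make dihydrouridine. They are 10 of the 43412 annotated genes named in the files, and all 10 were among the 13749 genes with a mean of at least 1 TPM (transcripts per a fixed total of transcripts in a library, a level corrected for length), which were tested. Poly(A)-selected mRNA was sequenced from GC-2spd cells, a line derived from mouse testis and labelled with the C57BL/6J strain background. The 3 normoxia libraries came from cells kept in 21% oxygen with 5% CO2, and the 3 hypoxia libraries from cells kept in 1% oxygen with 5% CO2. Both groups were the same line in the same serum-containing medium, and the labels give no exposure time. No label ties a library to a culture of its own. The p-values therefore measure only the spread between these libraries, which may be technical.

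Most of these enzymes act on the anticodon loop, where the wobble base and the base next to the anticodon on its 3′ side decide how well a tRNA reads its codons. The t6A group is put on the base next to the anticodon in tRNAs that read codons starting with A: Yrdc makes the activated threonylcarbamoyl precursor, Osgep transfers it in the cytoplasm as the catalytic subunit of the KEOPS complex, and Osgepl1 transfers it in mitochondria. Trit1 puts the isopentenyl group on the same base in tRNAs that read codons starting with U, Cdk5rap1 adds the methylthio group to i6A in mitochondrial tRNAs, and Cdkal1 adds it to t6A in a lysine tRNA. Queuosine replaces guanosine at the wobble position, through a heterodimer of catalytic Qtrt1 and accessory Qtrt2 that uses queuine taken up from diet and microbes. Dihydrouridine, unlike the others, lies mainly in the D loop of the tRNA. The libraries measured the mRNAs of these enzymes, not the modifications.

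To show the sequence near the starts of some of these genes, the stretch just upstream of the annotated transcripts was taken. It is given for Trit1, the member with the larger of the 2 rises, and for Qtrt1, which fell. Osgep is given as well, since it also fell and had the most CACGTG matches of the 10. The sequences are from RefSeq, build GRCm38.p6, where all 10 genes had a promoter entry. Each is written 5′ to 3′ on the strand of its gene. Capitals mark matches on either strand to ACGTG or GCGTG, the core letters bound by hypoxia-inducible factors, and to CACGTG, an E-box letter string that holds ACGTG on both strands. The stretches are chr4:123016343-123016543 on the plus strand for Trit1, chr9:21411721-21411800 on the plus strand for Qtrt1 and chr14:50924894-50924967 on the minus strand for Osgep.
Trit1: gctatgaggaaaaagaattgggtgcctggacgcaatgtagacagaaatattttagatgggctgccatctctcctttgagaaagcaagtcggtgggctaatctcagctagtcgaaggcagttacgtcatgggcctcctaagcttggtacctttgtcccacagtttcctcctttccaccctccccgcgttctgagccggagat
Qtrt1: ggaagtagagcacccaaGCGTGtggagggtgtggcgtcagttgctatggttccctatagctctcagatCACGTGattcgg
Osgep: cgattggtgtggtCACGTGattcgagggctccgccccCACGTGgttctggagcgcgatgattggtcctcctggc
The Trit1 stretch has no capitals. Over the whole window of 300 bases around each start, ACGTG was found in 2 of the 10 genes (Osgep and Qtrt1), against 20.9% of 21263 protein-coding promoters. GCGTG was found in 6 of the 10 (Osgepl1, Cdk5rap1, Qtrt1, Qtrt2, Dus1l and Dus2), against 38.5% of promoters. CACGTG was found in the same 2 genes as ACGTG, against 7.8% of promoters, with 3 matches in Osgep and 2 in Qtrt1. Qtrt2 and Dus1l, which fell as well but are not printed, had neither ACGTG nor CACGTG. A link of motif and change was not tested. The windows of Trit1, Yrdc and Cdkal1 held none of the 3 motifs. A match is a string of letters and not a measured binding site.

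The libraries were estimated to hold 5.75 to 6.61 gigabases of aligned sequence in normoxia and 5.80 to 6.72 in hypoxia. All 8 listed targets of hypoxia-inducible factors were higher in hypoxia, by 0.59 to 2.94 on the log2 scale. None of 15 germ cell, spermatocyte and spermatid markers reached 1 TPM in any library, and 7 of them were at 0 in all 6, the highest value being 0.604 TPM, so the data do not show the germ cell identity in the name of the line. By the mean over all 6 libraries, all 5 fibroblast and myoid markers were at 1 TPM or more, with a summed level of 2283 to 2352 TPM in normoxia and 2721 to 2976 TPM in hypoxia. That sum moved with Col1a1 (means of 1161 and 1720 TPM, called higher), while Pdgfra fell from 5.02 to 1.54 TPM and Col1a2, Col3a1 and Acta2 were not called. By the same mean, 2 of 5 Sertoli cell markers (9.42 to 11.07 TPM summed in normoxia, 15.92 to 18.14 in hypoxia), 2 of 5 Leydig cell markers (3.61 to 6.88 and 7.17 to 10.56), 2 of 4 macrophage markers (7.20 to 8.11 and 10.49 to 11.53) and 0 of 4 endothelial markers (0.896 to 2.11 and 0.279 to 1.501) reached 1 TPM. In each of the first 3 lists 1 gene was called higher, Sox9, Insl3 and Cd68, and the other marker at that level (Rhox5, Star and Csf1r) was not called. The Leydig marker Cyp11a1, under that level, had means of 0.848 TPM in normoxia and 0.0520 TPM in hypoxia. Fshr, Hsd3b1, Ptprc, Adgre1 and Cdh5, defining markers of these cell types, were at 0 in every library. Their part in the results was not tested. In such bulk samples, fewer cells of a type and less RNA per cell cannot be told apart.

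Hypoxia was compared with normoxia to ask which of these mRNAs were higher or lower at low oxygen, with limma on log2(TPM + 1) over all tested genes and Benjamini-Hochberg adjustment, a gene being called at an adjusted p under 0.05. Trit1 and Osgepl1 rose, Osgep, Qtrt1, Qtrt2 and Dus1l fell, and Yrdc, Cdk5rap1, Cdkal1 and Dus2 did not pass. Across all tested genes 54.0% were called, 17.9% as higher and 36.1% as lower, so 6 of 10 members called, 2 higher and 4 lower, is a share near the background. At an unadjusted p under 0.05 there were 8 of 10 members, against 59.7% of all tested genes. The median log2 fold change was -0.40 over the 10 members and -0.13 over all tested genes. Relative levels depend on the scaling here: after median-ratio scaling, which brings the median of all genes to 0.00, and after quantile normalization, 3 members were called higher and 2 lower. Of all 13749 tested genes, 3603 were called higher and 3622 lower with the former, and 3575 higher and 3639 lower with the latter. Fold changes are on the log2(TPM + 1) scale, which understates the change of low genes.

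**Figure D1:**
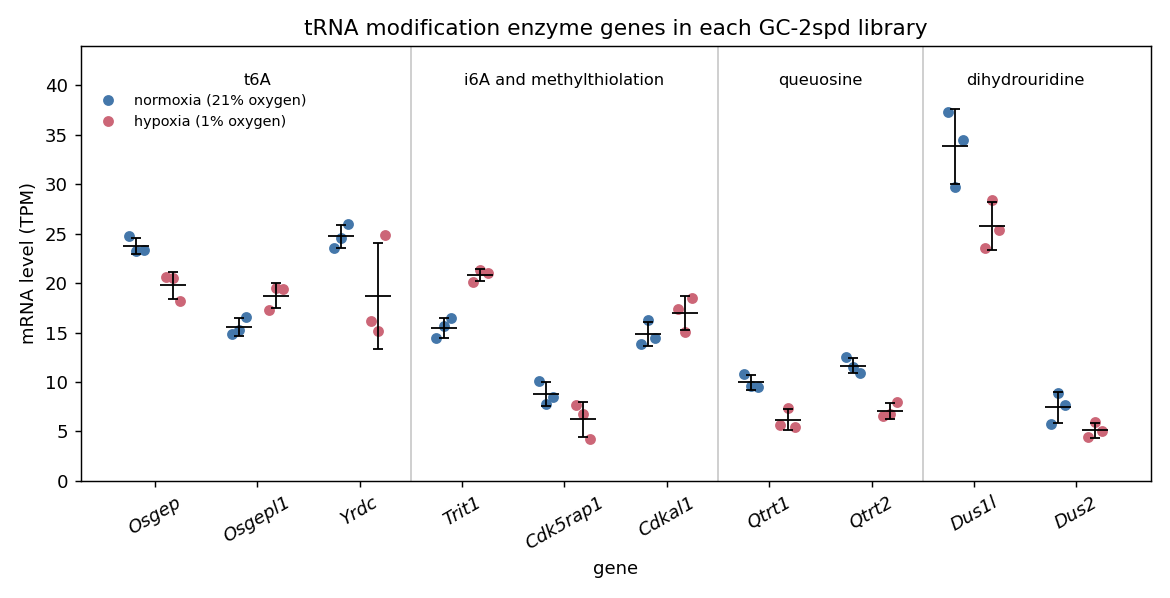
mRNA level in TPM (vertical axis) of the 10 tRNA modification enzyme genes (horizontal axis, by modification) in each of 3 normoxia (blue) and 3 hypoxia (red) libraries; horizontal bars are means and error bars SD. Trit1 and Osgepl1 sit higher in all 3 hypoxia libraries, Qtrt1 and Qtrt2 lower, and 1 hypoxia library of Yrdc, at 24.9 TPM, lies among the normoxia libraries.

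The enzyme that starts i6A rose in every hypoxia library. Trit1 (ENSMUSG00000028653, on the plus strand of mm10 chromosome 4 from 123016597 to 123054949) was at 14.4, 15.6 and 16.4 TPM in normoxia and at 20.1, 21.3 and 21.0 TPM in hypoxia. The lowest hypoxia library was above the highest normoxia library. Its mean went from 15.5 ± 1.01 (SD, n = 3) to 20.8 ± 0.635 TPM, a log2 fold change of 0.40 (SE 0.07; limma adjusted p = 0.00274). No other expressed gene overlaps its locus, and the call was the same under all 16 alternatives tried.

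The enzymes that add the methylthio group were not called. Cdk5rap1 (ENSMUSG00000027487, minus strand of chromosome 2, 154335380 to 154373010) was at 10.1, 7.80 and 8.46 TPM in normoxia and 7.66, 6.75 and 4.23 TPM in hypoxia. Its groups do not overlap, but the lowest normoxia value and the highest hypoxia value are nearly level, and 1 hypoxia library was well below the rest. The log2 fold change was -0.47, with a 95% interval from -0.94 to 0.0082 and a limma adjusted p of 0.0880. Without the first hypoxia library its adjusted p was 0.0471. Cdkal1 (ENSMUSG00000006191, minus strand of chromosome 13, 29191746 to 29855674) is the longest locus of the set. It was at 13.9, 16.3 and 14.4 TPM in normoxia and 17.4, 15.1 and 18.5 TPM in hypoxia, with overlapping groups. Its log2 fold change was 0.18, with an interval from -0.05 to 0.41 (limma adjusted p = 0.163). After median-ratio scaling it was 0.32 (adjusted p = 0.0336), and after quantile normalization 0.37 (adjusted p = 0.0185), both of which call it higher.

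Both subunits of the queuosine enzyme fell, Qtrt1 to 0.620 and Qtrt2 to 0.606 of the normoxia level. Qtrt1 (ENSMUSG00000002825, plus strand of chromosome 9, 21411837 to 21420277) was at 10.8, 9.55 and 9.48 TPM in normoxia and 5.69, 7.38 and 5.46 TPM in hypoxia. All 3 hypoxia libraries were below all 3 normoxia libraries. The mean went from 9.96 ± 0.765 to 6.18 ± 1.05 TPM, a log2 fold change of -0.62 (SE 0.12; limma adjusted p = 0.00512). Qtrt2 (ENSMUSG00000022704, minus strand of chromosome 16, 43861407 to 43926809) was at 12.5, 11.5 and 11.0 TPM in normoxia and 6.51, 6.71 and 7.93 TPM in hypoxia, again without overlap. Its mean went from 11.7 ± 0.785 to 7.05 ± 0.769 TPM, a log2 fold change of -0.65 (SE 0.10; limma adjusted p = 0.00147). Both calls held under the 16 alternatives, with adjusted p from 0.00254 to 0.0286 for Qtrt1 and from 0.000609 to 0.0104 for Qtrt2. Ccdc191 overlaps Qtrt2 on the opposite strand over 37010 bases, and was at 5.82 TPM in normoxia and 6.27 TPM in hypoxia (not called). Whether counting used strand is not given in the sources used here. Reads in the bases that Qtrt2 and the other overlapped members share with their partners therefore cannot be told apart, and these values are uncertain. For Osgepl1 and Gm28778, which lie on the same strand, strand would not separate the reads in any case. The locus that StringTie assembled for Qtrt2 from the reads ended at 43889656 in every library, before Ccdc191 starts at 43889800.

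Among the t6A enzymes, the cytoplasmic transferase Osgep fell and the mitochondrial transferase Osgepl1 rose with TPM as deposited, the former call being lost under both other scalings. Osgep (ENSMUSG00000006289, minus strand of chromosome 14, 50906478 to 50924893) was at 24.7, 23.3 and 23.3 TPM in normoxia and 20.6, 20.5 and 18.1 TPM in hypoxia, every hypoxia library being lower. Its log2 fold change was -0.26 (SE 0.07; limma adjusted p = 0.0200). The log2 fold change was -0.12 (adjusted p = 0.237) after median-ratio scaling and -0.08 (adjusted p = 0.401) after quantile normalization, and the adjusted p was 0.0661 without the first normoxia library. Osgepl1 (ENSMUSG00000026096, plus strand of chromosome 1, 53313624 to 53326343) was at 14.9, 15.3 and 16.6 TPM in normoxia and 17.3, 19.5 and 19.4 TPM in hypoxia. The groups do not overlap, and its log2 fold change was 0.25 (SE 0.08; limma adjusted p = 0.0287). That call was lost without normoxia library 1 or 2 (adjusted p = 0.0869 and 0.0766) or without hypoxia library 2 or 3 (0.0878 and 0.0784). Its locus shares 4412 bases with Gm28778 on the same strand, which was at 33.6 TPM in normoxia and at 0.952 of that level in hypoxia and was not called. It also shares 837 bases with Gm28551 on the opposite strand, which rose from 53.8 to 65.2 TPM (log2 fold change 0.27, limma adjusted p = 0.00340). StringTie assembled no locus of its own for Osgepl1. In normoxia library 2 and hypoxia libraries 2 and 3, a locus from 53297095 to 53326343 took in Gm28778 as well. That joint locus was at 49.9 TPM in normoxia library 2 and at 45.2 and 48.6 TPM in hypoxia libraries 2 and 3. The rise of Osgepl1 therefore rests on how reads were divided between the 2 genes.

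Yrdc (ENSMUSG00000028889, plus strand of chromosome 4, 124850679 to 124855242) turned on a single library. It was at 23.6, 24.6 and 26.0 TPM in normoxia and at 16.2, 15.2 and 24.9 TPM in hypoxia, so that the first 2 hypoxia libraries were below normoxia and the third lay within it. The log2 fold change was -0.42, with an interval from -0.83 to -0.0011 and a limma adjusted p of 0.0830. Without the third hypoxia library it was -0.63 (adjusted p = 0.00139). 1110065P20Rik overlaps Yrdc over 518 bases on the opposite strand, and fell from 25.0 to 16.3 TPM (limma adjusted p = 0.0108).

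The dihydrouridine synthases stood at the top and the bottom of the level range. Dus1l (ENSMUSG00000025155, minus strand of chromosome 11, 120789201 to 120796403) was at 37.3, 29.8 and 34.5 TPM in normoxia and 23.6, 28.4 and 25.3 TPM in hypoxia. The groups do not overlap, although the second library of each group comes close. Its log2 fold change was -0.38 (SE 0.10; limma adjusted p = 0.0192), and the call was lost after median-ratio scaling (adjusted p = 0.0778), after quantile normalization (0.0992), and without normoxia library 1 or 3 (0.0598 and 0.0559) or hypoxia library 1 or 3 (0.0601 and 0.0524). Dus2 (ENSMUSG00000031901, plus strand of chromosome 8, 105991337 to 106053840) was at 5.71, 8.87 and 7.69 TPM in normoxia and 4.44, 5.93 and 5.00 TPM in hypoxia. Its groups overlap through the first normoxia library. The log2 fold change was -0.45, with an interval from -0.84 to -0.05 and a limma adjusted p of 0.0576. Without the first normoxia library the adjusted p was 0.0168, with FPKM in place of TPM 0.0449, and with protein-coding nuclear genes alone rescaled 0.0418. Ddx28 overlaps Dus2 over 2262 bases on the opposite strand and fell from 9.37 to 6.03 TPM (limma adjusted p = 0.00342).

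The groups did not overlap in 7 of the 10 genes, 2 higher and 5 lower in hypoxia, against 62.4% of all tested genes, 21.4% higher and 41.0% lower.

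**Figure D2:**
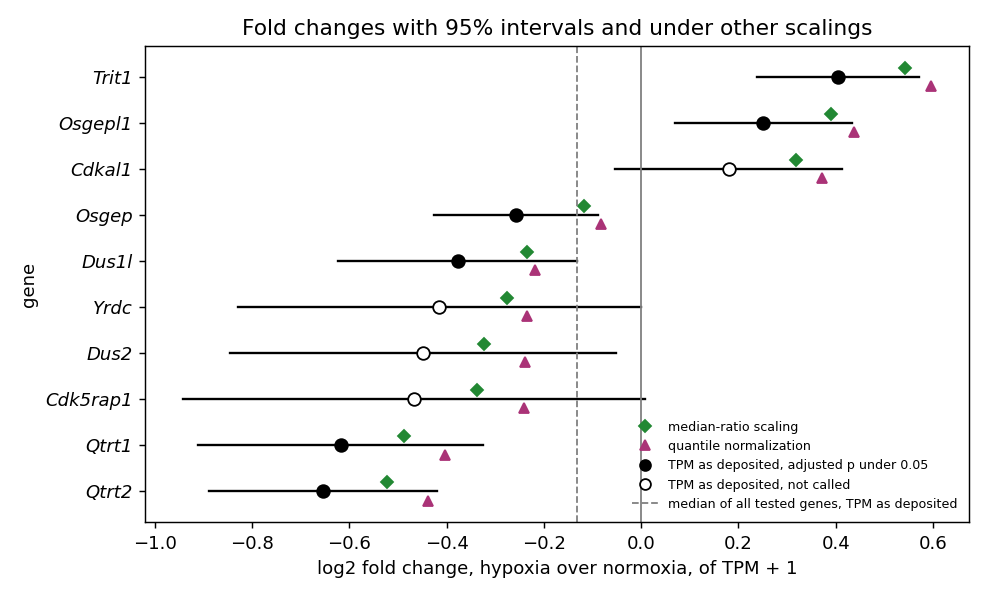
log2 fold change of TPM + 1, hypoxia over normoxia (horizontal axis), for each of the 10 genes (vertical axis); circles are the values as deposited with 95% intervals, filled where the limma adjusted p was under 0.05, and diamonds and triangles are the values after median-ratio scaling and quantile normalization. Trit1 lies highest at 0.40 and Qtrt2 lowest at -0.65, and both other scalings move every gene upward.

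By mean TPM, a per-length level, the order in normoxia ran Dus1l, Yrdc, Osgep, Osgepl1, Trit1, Cdkal1, Qtrt2, Qtrt1, Cdk5rap1 and Dus2. The upper gene of a neighbouring pair was higher in every normoxia library in 5 of 9 pairs: Dus1l over Yrdc, Osgep over Osgepl1, Cdkal1 over Qtrt2, Qtrt2 over Qtrt1 and Qtrt1 over Cdk5rap1. The other neighbours did not differ in every library. In hypoxia the order of mean TPM ran Dus1l, Trit1, Osgep, Osgepl1, Yrdc, Cdkal1, Qtrt2, Cdk5rap1, Qtrt1 and Dus2. Only 3 of those 9 neighbouring pairs differed the same way in every library (Dus1l over Trit1, Cdkal1 over Qtrt2, and Qtrt1 over Dus2). Trit1 went from rank 5 to rank 2, and Yrdc from rank 2 to rank 5. These orders are of annotated TPM, and some pairs turn with the TPM of the loci that StringTie assembled. Qtrt2 was then above Cdkal1 in normoxia libraries 1 and 3 (22.4 and 19.6 against 14.9 and 15.5 TPM). Cdk5rap1 was above Qtrt1 in normoxia libraries 2 and 3, and Dus2 above Qtrt1 in hypoxia library 3.

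To compare enzymes that work together or in parallel within each library, 6 ratios of TPM were taken, in which the library's scaling cancels. The ratio of Trit1 to Cdk5rap1, which add successive groups to the same base of some tRNAs, went from 1.77 in normoxia to 3.45 in hypoxia (geometric means). Its log2 values were 0.51, 1.00 and 0.96 in normoxia and 1.39, 1.66 and 2.31 in hypoxia, with no overlap. The ratio of Cdkal1 to Cdk5rap1, the paralogous methylthiotransferases, went from 1.70 to 2.81, and the ratio of Osgep to Osgepl1 from 1.53 to 1.05, also without overlap. For Cdkal1 to Cdk5rap1 the log2 values were 0.45, 1.06 and 0.77 in normoxia and 1.18, 1.16 and 2.13 in hypoxia. Its log2 difference of 0.73 was 0.41 without the third hypoxia library. For these 3 ratios the two-sided exact permutation test gave p = 0.1, the smallest that 3 against 3 libraries allow, and 0.2 after Benjamini-Hochberg adjustment over the 6 ratios, so this design could not have passed the threshold.

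The other 3 ratios overlapped between groups. Qtrt1 to Qtrt2, the subunits of the queuosine enzyme, was 0.854 in normoxia and 0.871 in hypoxia (log2 difference 0.03, exact permutation p = 0.7), and its log2 values spread from -0.27 to -0.21 in normoxia and from -0.54 to 0.14 in hypoxia. That ratio holds for annotated TPM only. In the loci that StringTie assembled, the mean of Qtrt1 went from 9.96 to 6.47 TPM and that of Qtrt2 from 18.8 to 9.47 TPM. The ratio of Yrdc to Osgep, supplier and user of the threonylcarbamoyl group, differed by -0.17 (exact permutation p = 0.7), hypoxia library 3 being above every other library. Dus1l to Dus2 was 4.62 in normoxia and 5.05 in hypoxia (log2 difference 0.13, exact permutation p = 0.7).

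**Figure D3:**
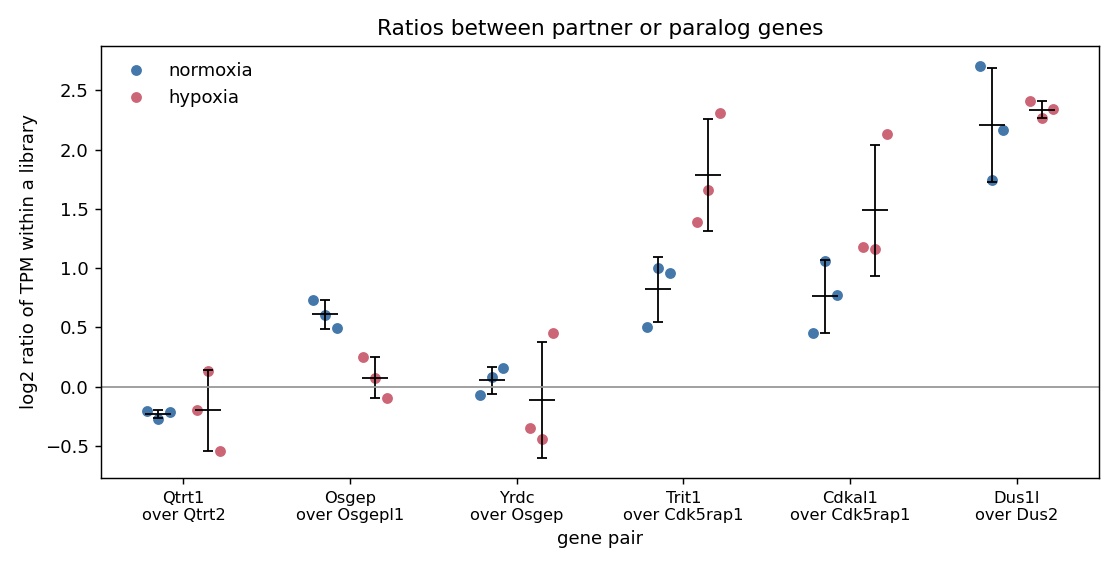
log2 ratio of TPM within a library (vertical axis) for 6 gene pairs (horizontal axis) in the 3 normoxia (blue) and 3 hypoxia (red) libraries, with mean and SD. The Trit1 to Cdk5rap1, Cdkal1 to Cdk5rap1 and Osgep to Osgepl1 ratios do not overlap between groups, while the Qtrt1 to Qtrt2 ratio spreads on both sides of its normoxia values in hypoxia.

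Beyond the 10 enzymes, 28 other genes of these and neighbouring tRNA pathways were listed, of which 26 were in the files and 24 were tested. Of the 24, 15 fell and 1 rose, with a median log2 fold change of -0.39 (36.1% of all tested genes were called lower). The genes of wybutosine, the tricyclic base of phenylalanine tRNA, fell in 5 of 6 cases. Lcmt2 had log2 fold change -1.39, Trmt12 -1.32, Tyw1 -0.78, Tyw3 -0.54 and Trmt5 -0.52. Lcmt2 and Trmt12 were low, at means of 4.94 and 2.94 TPM in normoxia and 1.27 and 0.582 TPM in hypoxia. All 3 of the 3-methylcytosine genes fell, Mettl8 by the most (-0.86), with Mettl2 at -0.36 and Mettl6 at -0.32.

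All 3 ribose methylation genes tested were called lower, as were 36.1% of all tested genes. Wdr6, whose product partners Ftsj1, went from 97.3 ± 6.49 to 56.9 ± 2.46 TPM (log2 fold change -0.76, limma adjusted p = 0.000116), Ftsj1 fell by 0.71 and Thada by 0.65 on the log2 scale. Trdmt1, a cytosine methyltransferase, fell by 0.47 and Pus3, a pseudouridine synthase, by 0.42. Among the KEOPS partners of Osgep, Lage3 fell by 0.34, Gon7 rose by 0.21 (limma adjusted p = 0.0286), a call lost with FPKM and without normoxia library 1 or 3 or hypoxia library 1 or 2, and Tprkb had a log2 fold change of -0.16 that did not pass. Dus4l was the dihydrouridine synthase with the largest decline, -0.96, from 5.16 ± 0.807 to 2.18 ± 0.431 TPM, while Dus3l was at 41.3 TPM in normoxia and 42.7 TPM in hypoxia and was not called.

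Neither inosine gene tested (Adat1 and Adat2) was called, nor were Trmo, which methylates t6A, or the queuosine glycosylation genes Gtdc1 and B3gntl1. Gtdc1 was at 1.09, 1.53 and 1.24 TPM in normoxia and 2.70, 6.08 and 1.66 TPM in hypoxia, an imprecise log2 fold change of 0.85 (interval 0.04 to 1.67, limma adjusted p = 0.0737). Slc35f2, a queuine transporter, and 2210016F16Rik were under 1 TPM and were not tested. Of the 16 genes called, 7 overlap another tested gene (Gon7, Tyw3, Lcmt2, Mettl6, Mettl8, Wdr6 and Pus3) and are uncertain. The partners of Gon7, Gm28051 and Gm20604, lie on its own strand, so strand would not separate their reads. For the others the reason is the one given above. The number called lower was 11 after median-ratio scaling and 10 after quantile normalization, with 2 higher in each. Of all 13749 tested genes, 3622 and 3639 were then called lower, and 3603 and 3575 higher.

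**Figure D4:**
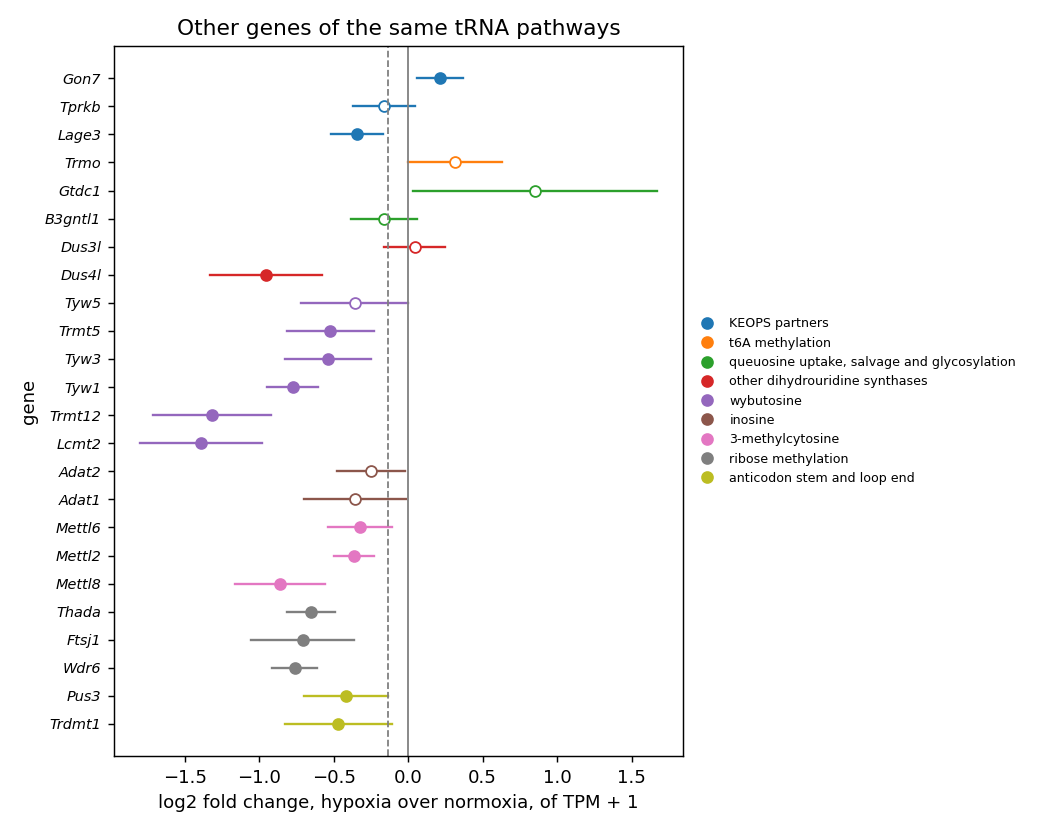
log2 fold change of TPM + 1, hypoxia over normoxia, with 95% intervals (horizontal axis) for 24 other tRNA modification genes (vertical axis), coloured by pathway and filled where the limma adjusted p was under 0.05. The dashed line is the median of all tested genes at -0.13, and most wybutosine, 3-methylcytosine and ribose methylation genes lie to its left.

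Among 11290 genes compared by their centred log2 profiles over the 6 libraries, Klra4 and Hexa, which encodes a lysosomal hexosaminidase subunit, were nearest to Trit1, at root-mean-square differences of 0.0245 and 0.0283. Hexa was at 108.5, 110.3 and 117.1 TPM in normoxia and 141.8, 148.7 and 147.8 TPM in hypoxia. Nearest to Qtrt2 were Taf2, a subunit of the general transcription factor TFIID, Stn1, a telomere maintenance factor, and Stx2, a syntaxin of membrane fusion, at 0.0367, 0.0388 and 0.0392. Taf2 was at 44.4, 41.4 and 40.4 TPM in normoxia and 25.5, 25.3 and 28.0 TPM in hypoxia.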

How the data were processed

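Processed gene tables of 6 poly(A) RNA libraries were used, 3 of GC-2spd cells in normoxia and 3 in hypoxia, grouped by their titles. Per the labels, the submitters trimmed reads with cutadapt, aligned them to mm10 with HISAT2 and assembled and quantified them with StringTie, versions not given in the sources used here. The deposited tables give each gene a coverage, an FPKM and a TPM value, and no read counts, so no counting interval could be set. Depth in aligned bases was estimated as the median ratio of coverage to FPKM over assembled loci without a strand. In each deposited table TPM was given for assembled loci and, beside them, for annotated genes. Annotated rows were used here, and TPM was summed per gene symbol, with 42462 of 43432 gene IDs matched to a GENCODE symbol. The annotated rows summed to less TPM than the assembled rows, by 1.86 to 2.75% of the latter in normoxia and 2.30 to 5.17% in hypoxia. Coordinates are those of the files.

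Genes with mean TPM of at least 1 were tested on log2(TPM + 1) with limma 3.58.1 in R 4.3.3 (empirical Bayes with a variance trend, two-sided, Benjamini-Hochberg threshold 0.05). The fit was also run on data simulated with the means and spreads of these libraries. Far fewer genes were changed there than were called here, equally often up and down, so that run does not cover the shift seen here. Intervals are 95%. Ratios were compared by exact permutation. No pairing of libraries by replicate number was assumed. All members were named, then the pathway genes that were called, the genes overlapping a member, and the 3 genes nearest to Trit1 and to Qtrt2 by root-mean-square difference, of which 1 is not reported here; pathway genes not called are named outside that rule, after their values were seen. Alternatives were another pseudocount, other filters, FPKM, median-ratio scaling, quantile normalization, rescaling of protein-coding nuclear genes, no variance trend, a replicate block, leaving out each library, and assembled-locus TPM (chosen after seeing the data). The members and lists were chosen with earlier results of these data known. The promoter windows and motifs were matched in Python 3.11.15 to RefSeq GRCm38.p6. Trp53rk and Adat3 were not analysed here under those symbols.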

Additional observations from a re-analysis of the deposited data

How the results depend on the processing

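The calls of Trit1, Qtrt1 and Qtrt2 held under all 16 alternatives (limma adjusted p for Trit1 from 0.000639 to 0.0124). Under both median-ratio scaling and quantile normalization 2 members were called lower, and among all tested genes 2463 called higher and 4967 lower became 3603 higher and 3622 lower with the former and 3575 higher and 3639 lower with the latter. Leaving out 1 library gave 1 to 2 members higher and 3 to 4 lower, and 0 to 2 genes of the pathway list higher. That list had 0 called higher with FPKM and 2 with either scaling. Without 1 library the difference of the log2 ratio of Qtrt1 to Qtrt2 ran from -0.14 (without the second hypoxia library) to 0.20, and that of Dus1l to Dus2 from -0.0991 (without the second normoxia library) to 0.38, so their directions rest on single libraries. The replicate numbers were not taken as a pairing, since the deviations of same-numbered libraries correlated at only 0.026, 0.033 and 0.011. With the replicate block, 2 members were higher and 4 lower, the pathway list had 0 higher, Dus1l lost its call (adjusted p = 0.0556), Dus2 gained one (0.0211), and 2281 genes were higher and 4674 lower. The causes were not tested.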

Other observations

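StringTie also gave TPM for the loci it assembled itself. For 7 members the assembled locus stayed within the annotated gene on its strand in all 6 libraries, and its TPM was compared as well, an alternative chosen after seeing the data. Cdk5rap1 was then at 10.4, 11.3 and 9.72 TPM in normoxia and 8.24, 7.17 and 5.91 TPM in hypoxia (log2 fold change -0.51, limma adjusted p = 0.0119), and was called lower. Dus2 was at 7.32, 9.86 and 8.32 TPM in normoxia and 5.56, 7.04 and 5.98 TPM in hypoxia (log2 fold change -0.40, limma adjusted p = 0.0376), also lower. Qtrt2 was at 22.4, 14.5 and 19.6 TPM in normoxia and 7.94, 7.76 and 12.7 TPM in hypoxia (log2 fold change -0.93, limma adjusted p = 0.0104). With these values for the 7 members, and annotated TPM kept for Osgep, Osgepl1 and Dus1l, 6 members were called lower and 2 higher. Among all tested genes, with TPM as deposited, 36.1% were called lower and 17.9% higher. Trp53rka and Trp53rkb, also used after seeing the data, are gene copies of the kinase subunit of KEOPS between which reads may be split, so their values are uncertain. Trp53rka had mean TPM 12.0 in normoxia and 11.0 in hypoxia and was not called, and Trp53rkb fell from 2.36 to 1.01 TPM (limma adjusted p = 0.00499).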
